A study of Mus musculus with 6 samples.

Results

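The mitochondrial ribosomal proteins were taken as every gene whose symbol on the array platform starts with Mrpl or Mrps followed by a digit. A total of 76 such genes was measured among 17720 genes, 47 of the large subunit (Mrpl) and 29 of the small subunit (Mrps) by symbol. RefSeq lists 78 protein-coding genes with such symbols, and the other two, Mrpl30 and Mrpl53, were not analysed here. For each gene the probe set with a single gene symbol and the highest mean over the 6 arrays was used, a choice that did not involve any difference between the groups.

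The arrays measured RNA of mouse adipocytes in 3 groups of 2 arrays, 1 array per sample. Bone marrow-derived adipocytes were sorted, by a marker of the marrow donor, from floating cells of the gonadal fat of marrow transplant recipients. The donor of replicate 1 expressed green fluorescent protein (GFP), and that of replicate 2 expressed beta-galactosidase (LacZ). White adipocytes came from gonadal fat. Brown adipocytes came from fat of the upper back that the labels call intrascapular. The host mice kept their own adipocytes, so the marker alone set the bone marrow-derived cells apart, and the 2 arrays of that group differ in marker as well as in replicate. The labels used here give no strain, age or sex, and do not say whether the white and brown cells came from transplanted mice. Per the labels' protocols, material from at least 6 sorts of about 5000 cells each was pooled per sample, and the RNA was amplified before labelling. No label ties the samples, called biological replicates, to separate animals, and the p-values therefore cover the spread of these samples only, some of which may be technical.

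Mitochondria carry a small genome that encodes core subunits of the respiratory chain, and these subunits are made on ribosomes of the organelle's own. The mitochondrial ribosome, or mitoribosome, has a small subunit that binds and decodes the messenger RNA and a large subunit that joins amino acids and docks at the inner membrane. All of its proteins are encoded in the nucleus, made on cytosolic ribosomes and imported. Some descend from bacterial ribosomal proteins and others are found only in mitochondria. Brown adipocytes are rich in mitochondria, which they use to produce heat.

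All values are log2 expression values of the deposited table, and a difference of 1 on this scale is a 2-fold change. The value after ± beside a difference is the standard error (SE) of limma, a linear model fitted to every gene with moderated errors, with n = 2 arrays per group. A gene was called where its limma p, adjusted over all 17720 genes of a comparison by the method of Benjamini and Hochberg, was under 0.05. A probe set's level depends on its probes, so levels of different genes were not compared with each other. Because these are bulk samples of many cells, fewer cells of a type and less RNA per cell cannot be told apart.

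Mitochondrial ribosomal protein RNA was lowest in the bone marrow-derived adipocytes, intermediate in the white and highest in the brown. The mean over the 47 large subunit genes was 9.86 and 9.79 in the GFP and LacZ bone marrow-derived samples, against 10.39 and 10.53 in the white samples and 10.80 and 10.92 in the brown samples. The mean over the 29 small subunit genes was 9.84 and 9.78 in the bone marrow-derived samples, against 10.46 and 10.64 in the white and 10.88 and 11.02 in the brown samples. For both subunits the arrays of the 3 groups did not overlap. The same order of all arrays, bone marrow-derived below white below brown without overlap, held gene by gene for 47 of the 76 genes, 31 of the large and 16 of the small subunit, where 7.95% of all genes showed it.

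**Figure D1:**
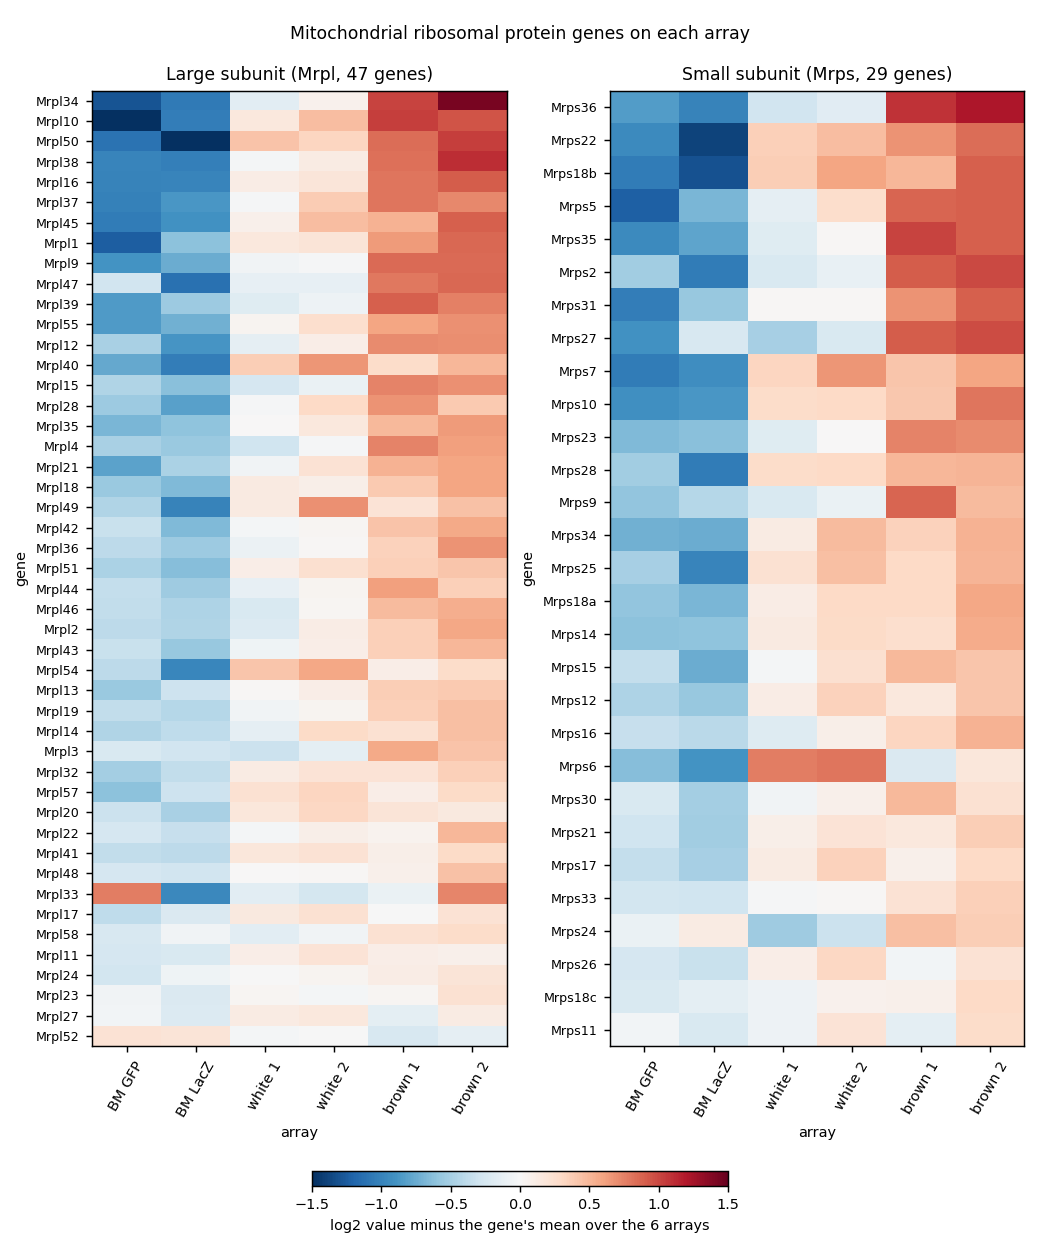
Log2 value of each of the 47 large subunit genes (left) and 29 small subunit genes (right) on each array, minus the gene's mean over the 6 arrays, with blue below and red above that mean. Columns are the arrays of the bone marrow-derived (BM, with GFP or LacZ), white and brown adipocytes, and rows are ordered by the difference between bone marrow-derived and brown. Most rows run from blue in the bone marrow-derived arrays to red in the brown arrays, and Mrpl52 runs the other way.

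Promoters of 8 genes are shown because they belong to the extremes of the comparison with brown adipocytes, the 3 called genes with the lowest difference and the gene with the highest difference in each subunit. The sequences are RefSeq's for assembly GRCm38.p6, and the promoter table used here matched 67 of the 76 genes. Each runs 5′ to 3′ on the gene's strand from 150 bases before the annotated start to 30 bases after it. Capitals mark matches, on either strand, to the core motifs of regulators known at promoters of mitochondrial genes: CCGGAAG of the ETS family, which includes GABPA (NRF2), AAGATGGC of YY1, AAGGTCA of the estrogen-related receptors (ERR), the palindromic core of NRF1, and the core of ZNF143. The ZNF143 motif was added after these stretches had been read.
Mrpl34, chr8:71464776-71464955, plus strand: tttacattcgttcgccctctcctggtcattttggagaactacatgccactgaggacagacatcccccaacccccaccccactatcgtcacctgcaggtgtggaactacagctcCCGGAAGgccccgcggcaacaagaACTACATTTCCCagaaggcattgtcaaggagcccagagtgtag
Mrpl10, chr11:97041432-97041611, plus strand: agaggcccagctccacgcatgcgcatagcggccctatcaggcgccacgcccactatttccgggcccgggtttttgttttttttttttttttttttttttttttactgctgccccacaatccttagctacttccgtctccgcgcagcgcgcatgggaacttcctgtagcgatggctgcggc
Mrpl50, chr4:49521054-49521233, minus strand: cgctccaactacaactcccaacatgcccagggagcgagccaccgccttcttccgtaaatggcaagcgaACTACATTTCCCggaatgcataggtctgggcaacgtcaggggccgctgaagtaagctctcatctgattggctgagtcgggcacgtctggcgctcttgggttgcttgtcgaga
Mrpl52, chr14:54426759-54426938, plus strand: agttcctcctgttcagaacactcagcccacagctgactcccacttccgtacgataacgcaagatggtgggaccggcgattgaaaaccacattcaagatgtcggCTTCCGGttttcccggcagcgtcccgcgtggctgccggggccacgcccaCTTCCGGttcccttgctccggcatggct
Mrps36, chr13:100744630-100744809, minus strand: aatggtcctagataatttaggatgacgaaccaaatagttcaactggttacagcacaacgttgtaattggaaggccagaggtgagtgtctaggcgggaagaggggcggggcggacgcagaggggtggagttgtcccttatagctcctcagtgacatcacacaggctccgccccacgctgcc
Mrps22, chr9:98601650-98601829, minus strand: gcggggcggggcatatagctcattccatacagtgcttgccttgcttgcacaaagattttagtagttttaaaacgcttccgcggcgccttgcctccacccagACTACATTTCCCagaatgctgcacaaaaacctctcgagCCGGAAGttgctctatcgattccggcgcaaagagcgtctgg
Mrps18b, chr17:35916411-35916590, minus strand: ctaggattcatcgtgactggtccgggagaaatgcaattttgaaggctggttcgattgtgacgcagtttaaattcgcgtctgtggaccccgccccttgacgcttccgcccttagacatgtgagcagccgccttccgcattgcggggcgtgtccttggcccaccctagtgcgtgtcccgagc
Mrps11, chr7:78782981-78783160, plus strand: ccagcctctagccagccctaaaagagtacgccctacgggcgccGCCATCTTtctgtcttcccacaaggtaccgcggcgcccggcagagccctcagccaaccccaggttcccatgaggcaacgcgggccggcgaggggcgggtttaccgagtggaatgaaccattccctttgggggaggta

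Over windows of 300 bases, from 250 before the start to 50 after it, the ETS core stood in 24 of the 67 windows (35.8%), against 11.9% of 17492 protein-coding genes. The YY1 core stood in 12 windows (17.9%), against 3.22% of protein-coding genes. The NRF1 core stood in 3 windows (4.48%), against 1.32%, and the ERR core in 4 windows (5.97%), against 4.08%. The ZNF143 motif was found in 3 windows (4.48%), those of Mrpl34, Mrpl50 and Mrps22 printed above, against 1.43%, and as it was picked from those stretches its count is a description only. Neighbouring ETS and ZNF143 letters did not overlap in the windows of Mrpl34 and Mrps22. In Mrps18b an ETS core lay beyond the printed end, and in the windows of Mrpl10 and Mrps36 these letters were not found. The 24 genes with an ETS core had a median difference between bone marrow-derived and brown adipocytes of −0.78, and the 43 genes without one a median of −1.15. A match of letters is a description and not a bound site.

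Markers of other cell types also differed between the groups. Of all genes, 12.2% were called higher and 13.6% lower than in white, and 8.71% higher and 11.7% lower than in brown. Endothelial markers averaged 11.36 and 11.93 in bone marrow-derived, 8.40 and 7.35 in white and 10.90 and 10.41 in brown adipocytes, with all 12 called higher than in white and 2 higher than in brown. Pecam1, which encodes the endothelial adhesion molecule CD31, measured 10.98 and 11.91 in bone marrow-derived, 7.80 and 6.66 in white and 10.55 and 10.02 in brown adipocytes. Adipocyte markers (13 of 15 measured) averaged 11.81 and 10.99 in bone marrow-derived, 12.82 and 12.97 in white and 12.63 and 12.69 in brown adipocytes, with 6 lower than in white and 5 lower than in brown. Adipoq, which encodes adiponectin, was high on every array, with 12.70 and 11.86 in bone marrow-derived, 13.22 and 13.24 in white and 13.01 and 13.15 in brown adipocytes. Macrophage markers (18) averaged 10.46 and 7.78 in bone marrow-derived, 10.75 and 9.15 in white and 8.02 and 7.26 in brown adipocytes, so they split the GFP and LacZ samples, whose means over the 76 members were 9.85 and 9.78. Brown adipocyte markers averaged 6.33 and 4.54 in bone marrow-derived, 7.08 and 6.39 in white and 11.06 and 11.16 in brown adipocytes. Of these 11 measured genes, 10 were called lower than in brown, and 2 lower and 1 higher than in white. Fibroblast and preadipocyte markers averaged 10.27 and 10.24 in bone marrow-derived, 9.45 and 8.51 in white and 8.61 and 7.81 in brown adipocytes, with 4 of 12 called higher than in white and 5 higher than in brown. Mesothelial markers averaged 7.52 and 5.59 in bone marrow-derived, 6.62 and 6.69 in white and 3.75 and 4.01 in brown adipocytes. Of these 8 genes, 4 were called higher than in brown and 0 in either direction against white. The mean over lymphocyte markers lay between 4.94 and 6.34 on all arrays, and that over 5 erythroid markers between 4.42 and 5.58. Of the erythroid markers, Alas2 and Epor were called higher than in white, with differences of 2.48 and 2.72, and Epor higher than in brown. The part of other cell types, endothelial cells among them, in the lower values of the mitochondrial ribosomal proteins was not tested.

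Compared with white adipocytes of the same depot, bone marrow-derived adipocytes had lower RNA of 36 of the 76 mitochondrial ribosomal proteins, 20 of 47 in the large and 16 of 29 in the small subunit. In the same comparison 13.6% of all genes tested were lower and 12.2% were higher. No member was called higher by limma, and 0 were higher at an unadjusted p under 0.05, against 51 lower. Of all 17720 genes, 3208 were higher and 3661 lower at that unadjusted p. The median difference was −0.63 over all members, −0.57 for the large and −0.69 for the small subunit, and −0.07 over all genes. In 69 of the 76 genes both bone marrow-derived arrays lay below both white arrays, which 35.8% of all genes showed. In 20 members the called difference was at least 2-fold, where 10.2% of all genes were called lower by that much. Members lie mostly at middle levels, and of the 7497 genes with a mean of 8 to 12 a share of 19.5% was lower.

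The large subunit genes with the largest differences from white were Mrpl50, Mrpl10, Mrpl40 and Mrpl45. Mrpl50, a protein of the large subunit found only in mitochondria, measured 8.46 and 8.05 in the bone marrow-derived samples against 9.98 and 9.88 in the white samples. It was 3.20-fold lower (log2 difference −1.68 ± 0.20, adjusted p = 0.00684). Mrpl10, which forms the base of the stalk where translation factors dock, measured 7.43 and 7.96 in bone marrow-derived against 9.15 and 9.46 in white adipocytes, 3.05-fold lower (−1.61 ± 0.24, adjusted p = 0.0103). Both bone marrow-derived arrays lay more than 1 log2 unit below both white arrays for these genes. Mrpl40 measured 9.43 and 9.17 in bone marrow-derived and 10.58 and 10.86 in white adipocytes, and Mrpl45, which anchors the large subunit to the inner membrane, 7.44 and 7.58 against 8.57 and 8.95. They were 2.67-fold and 2.38-fold lower, with adjusted p of 0.0092 and 0.0161.

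In the small subunit the genes with the largest differences from white were Mrps18b, Mrps22, Mrps6 and Mrps7. Mrps18b measured 9.99 and 9.74 in bone marrow-derived against 11.41 and 11.64 in white adipocytes, 3.16-fold lower (−1.66 ± 0.22, adjusted p = 0.00795). Mrps22, a small subunit protein without a bacterial counterpart, measured 8.93 and 8.51 against 10.26 and 10.36, 3.0-fold lower (−1.59 ± 0.21, adjusted p = 0.00772). The groups stood apart in both genes by far more than the arrays of a group. Mrps6 measured 11.36 and 11.10 in bone marrow-derived against 12.76 and 12.80 in white adipocytes, 2.94-fold lower (adjusted p = 0.00803). Mrps7 measured 9.42 and 9.54 against 10.79 and 11.13, 2.79-fold lower (adjusted p = 0.00774). Mrps6 overlaps another annotated gene, Slc5a3, and its second probe set gave −1.40.

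The count of genes lower than in white depended on every array, and so did the share of all genes called lower. Without the GFP sample it was 13 large and 9 small subunit genes, when 12.1% of all genes were lower, and without the LacZ sample 12 and 8, when 10.1% were. Without white replicate 1 the median difference from white was −0.62 for the large and −0.79 for the small subunit. Without white replicate 2 the medians were −0.55 and −0.63. Without either brown replicate they stayed at −0.57 and −0.69. The direction was less dependent on single arrays: 73 of the 76 differences were below 0 with all arrays, and 71 to 73 with one array left out, where 55.6% of all genes lay below 0 with all arrays.

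Compared with brown adipocytes, bone marrow-derived adipocytes had lower RNA of 51 of the 76 genes, 31 of 47 in the large and 20 of 29 in the small subunit. Of all genes tested, 11.7% were lower and 8.71% were higher in this comparison, and of genes with a mean of 8 to 12 a share of 16.5% was lower. No member was called higher by limma, and 1, Mrpl52, was higher at an unadjusted p under 0.05, against 64 lower. Of all 17720 genes, 3093 were higher and 3271 lower at that unadjusted p. The median difference was −1.01 over all members, −0.94 for the large and −1.15 for the small subunit, and 0.02 over all genes. Both bone marrow-derived arrays lay below both brown arrays in 72 of the 76 genes, which 32.0% of all genes showed. The called difference was at least 2-fold in 38 members, where 9.29% of all genes reached that. The bone marrow-derived arrays enter both of these comparisons, so the results are not independent of each other.

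Mrpl34, the large subunit protein with the largest difference, measured 8.79 and 9.03 in bone marrow-derived against 11.10 and 11.51 in brown adipocytes. It was 5.26-fold lower (−2.40 ± 0.22, adjusted p = 0.00415). Its promoter is the first of those printed above, with an ETS core and a ZNF143 motif. Mrpl10 measured 7.43 and 7.96 in bone marrow-derived against 10.03 and 9.95 in brown adipocytes, 4.89-fold lower (−2.29 ± 0.24, adjusted p = 0.00575). Mrpl50 measured 8.46 and 8.05 against 10.40 and 10.60, 4.73-fold lower (−2.24 ± 0.20, adjusted p = 0.00418). For both genes the white arrays lay between the other groups, and the difference between white and brown did not pass (adjusted p = 0.155 and 0.161). Mrpl38, a protein found only in mitochondria, measured 8.23 and 8.19 against 10.05 and 10.33, 3.94-fold lower (−1.98 ± 0.18, adjusted p = 0.00407).

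In the small subunit Mrps36 measured 9.87 and 9.70 in bone marrow-derived against 11.79 and 11.92 in brown adipocytes, 4.19-fold lower (−2.07 ± 0.17, adjusted p = 0.00361). Despite its symbol, Mrps36 is known in mammals as a subunit of the oxoglutarate dehydrogenase complex of the tricarboxylic acid cycle and is not seen in mitoribosome structures. Mrps22 measured 8.93 and 8.51 against 10.57 and 10.74, 3.81-fold lower (−1.93 ± 0.21, adjusted p = 0.00598). Mrps18b measured 9.99 and 9.74 against 11.54 and 11.94, 3.67-fold lower (−1.88 ± 0.22, adjusted p = 0.00714). Mrps5, which has a bacterial counterpart near the messenger RNA entry, measured 6.58 and 7.12 against 8.68 and 8.70, 3.58-fold lower (−1.84 ± 0.25, adjusted p = 0.0104). In all of them the bone marrow-derived and brown arrays were more than 1 log2 unit apart.

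**Figure D2:**
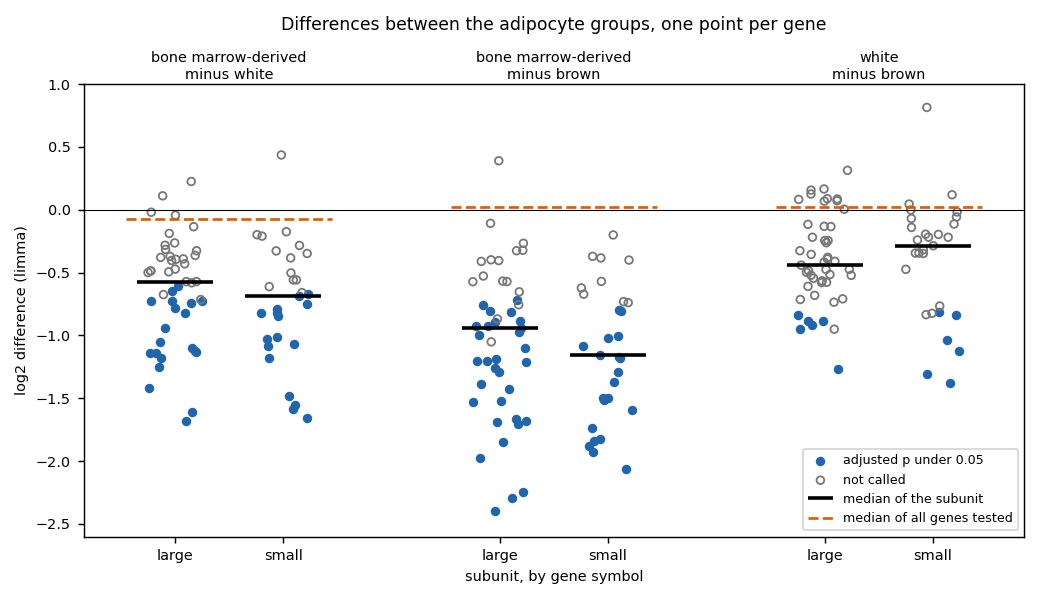
Log2 difference of each gene (limma, n = 2 arrays per group) between bone marrow-derived and white, bone marrow-derived and brown, and white and brown adipocytes, split by subunit, with filled points for adjusted p under 0.05. Black bars are the medians of the subunit, and dashed lines the medians over all 17720 genes. The points lie mostly below 0 in all 3 comparisons, and all filled points do.

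The count against brown rested mainly on the pair of brown arrays. It was 5 large and 3 small subunit genes without brown replicate 1, and 2 and 1 without brown replicate 2, when 2.00% and 1.35% of all genes were called lower. Without the LacZ sample the large subunit count was 20, when 9.22% of all genes were lower. The difference was below 0 in 75 of the 76 genes with all arrays, against 48.3% of all genes, and in 75 and 72 without brown replicate 1 and brown replicate 2.

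Next in size against brown were Mrpl16, Mrps35, Mrps2, Mrpl37, Mrpl45, Mrpl1, Mrpl9 and Mrps31, which fell by 1.59 to 1.85 on the log2 scale. The probe sets of Mrpl1 disagreed, so its decrease is not resolved. Its chosen probe set gave −1.68 against brown and −1.10 against white. Another, with a mean of 8.70, gave 0.02 and 0.07. The remaining Mrpl1 probe set, with a mean under 5, gave −1.16 and −0.56. In 30 members the bone marrow-derived adipocytes were lower than both white and brown, where 7.41% of all genes were. A further 21 members were called against brown and not against white, where 4.26% of all genes were. Another 6 were called against white and not against brown, near the 6.19% of all genes, namely Mrpl20, Mrpl49, Mrpl54, Mrpl57, Mrps6 and Mrps17. Whether the 2 differences of such a gene differ is the comparison of white with brown, and 0 of these 6 genes and 6 of those 21 passed it. The other 19 genes passed neither test, 12 of the large and 7 of the small subunit.

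White adipocytes had lower RNA than brown adipocytes for 12 of the 76 genes, 6 in each subunit, where 5.34% of all genes were lower and 3.87% were higher. Of genes with a mean of 8 to 12 a share of 6.71% was lower. No member was called higher in white by limma, and 1, Mrps6, was higher at an unadjusted p under 0.05, with 31 lower. Of all 17720 genes, 2274 were higher and 2351 lower at that unadjusted p. The median difference was −0.37 over all members, −0.44 for the large and −0.29 for the small subunit, and 0.02 over all genes. Both white arrays lay below both brown arrays in 52 genes, which 29.7% of all genes showed, and above them in 5, Mrpl11, Mrpl27, Mrpl52, Mrpl54 and Mrps6, which 32.4% of all genes showed.

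Mrps36 had the largest difference, with 10.41 and 10.53 in white against 11.79 and 11.92 in brown adipocytes, 2.60-fold lower (−1.38 ± 0.17, adjusted p = 0.0138). Mrps27, a small subunit protein of the pentatricopeptide repeat family, measured 8.30 and 8.56 in white against 9.70 and 9.77 in brown adipocytes, 2.47-fold lower (−1.31 ± 0.26, adjusted p = 0.0429). Its bone marrow-derived values, 7.89 and 8.55, overlapped those of white. Mrpl34 measured 9.92 and 10.15 in white against 11.10 and 11.51 in brown adipocytes, 2.41-fold lower (adjusted p = 0.029). Mrps2 measured 9.40 and 9.52 against 10.54 and 10.63, and Mrps35 measured 10.02 and 10.22 against 11.21 and 11.10. They were 2.18-fold and 2.05-fold lower, with adjusted p of 0.041 and 0.0264. Both white arrays of each of these genes lay below both brown arrays. Mrpl39, Mrpl38, Mrpl15, Mrpl9, Mrpl4, Mrps24 and Mrps23 were the other called genes, lower in white by 1.75-fold to 1.93-fold. With white replicate 1, brown replicate 1 or brown replicate 2 left out, 0 members were called, and with white replicate 2 left out 1 small subunit gene was. Few genes of any kind were called lower in these fits, 2.91%, 0.0395%, 0.0282% and 1.92% of all genes, so these counts say little about the members. The median difference between white and brown in these 4 fits was −0.51 to −0.36 for the large and −0.36 to −0.21 for the small subunit.

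**Figure D3:**
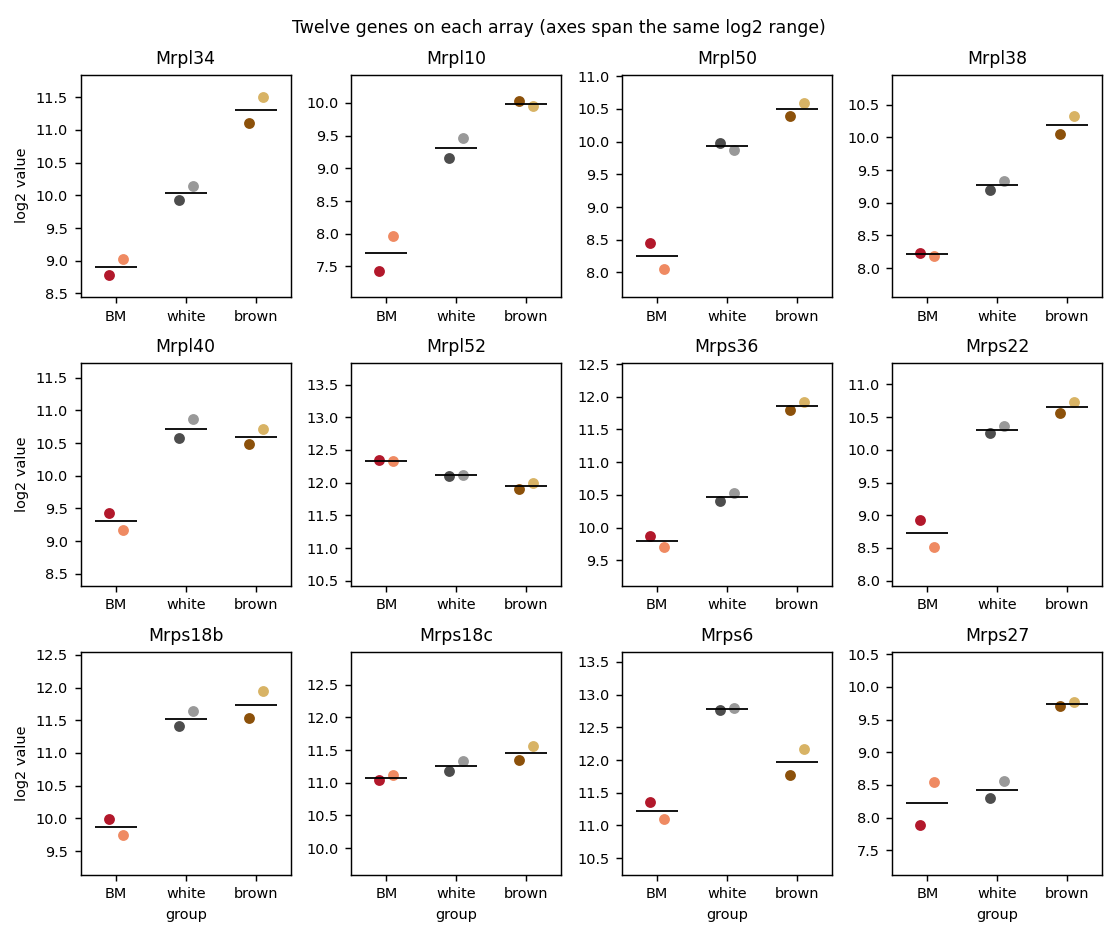
Log2 values of 12 genes in the bone marrow-derived (BM), white and brown adipocytes, each panel spanning the same range. In each group the left, darker point is the GFP sample or replicate 1, the right, lighter point the LacZ sample or replicate 2, and the line is the mean. Mrpl34, Mrpl10, Mrpl50 and Mrpl38 climb through the 3 groups, Mrps18b and Mrps22 set bone marrow-derived apart from the other two, Mrps36 and Mrps27 are highest in brown, and Mrpl52 and Mrps18c move little.

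Large and small subunit genes moved together. The mean of the large subunit genes minus that of the small subunit genes was 0.017 and 0.006 in the bone marrow-derived arrays, −0.071 and −0.105 in the white arrays, and −0.079 and −0.090 in the brown arrays. Only changes of this quantity between arrays can be read, since its level depends on the probes. Bone marrow-derived adipocytes exceeded white by 0.099 and brown by 0.096 in this quantity, and it differed by −0.0030 between white and brown, with a pooled SD within groups of 0.015. These shifts are small beside the decrease of each subunit, and no test was made on them because they are scores over the members. They fell to 0.057 and 0.043 when all probe sets of a gene were averaged.

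Genes of proteins with a bacterial counterpart and of proteins found only in mitochondria were both among those called lower. Against white the median difference was −0.49 for the 29 large subunit genes assigned a bacterial counterpart and −0.65 for the 18 assigned to mitochondria only. Mrpl55 was counted in the first class and may belong to the second. Its differences were −0.94 against white and −1.43 against brown. In the small subunit it was −0.71 for 18 genes with a counterpart and −0.69 for 11 without. Subunits are by symbol here, so these 11 include Mrps30, which sits in the large subunit, and Mrps36, which is not seen in mitoribosome structures. The median of −0.69 is the difference of Mrps36 itself. Against brown the medians were −0.97 and −0.93 in the large subunit and −1.01 and −1.37 in the small subunit. The genes called lower than in brown numbered 20 and 11 in the large subunit and 12 and 8 in the small subunit, so neither origin was free of decreases.

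The stalk that recruits translation factors showed unequal differences among its proteins. Mrpl12, which forms the stalk proper, measured 10.86 and 10.46 in bone marrow-derived, 11.22 and 11.45 in white and 12.05 and 12.05 in brown adipocytes, and was 2.62-fold lower than in brown (adjusted p = 0.0124) while the difference from white was −0.67 (adjusted p = 0.0655). Mrpl10, at the stalk base, was lower than in both, as given above. Mrpl11, which lies beside the base, measured 11.50 and 11.53 in bone marrow-derived, 11.85 and 11.96 in white and 11.85 and 11.83 in brown adipocytes. Its differences of −0.39 and −0.33 did not pass the test (adjusted p = 0.12 and 0.193), although its arrays did not overlap between bone marrow-derived and either other group. Whether these genes differ from each other in their differences was not tested.

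Mrps18a, Mrps18b and Mrps18c are paralogues of the bacterial protein S18, and Mrps18a sits in the large subunit in mitoribosome structures. Mrps18a measured 9.82 and 9.73 in bone marrow-derived, 10.52 and 10.71 in white and 10.71 and 10.9997 in brown adipocytes. It was 1.80-fold lower than in white (adjusted p = 0.0269) and 2.12-fold lower than in brown (adjusted p = 0.0176). Mrps18b had the largest differences of the 3, with values already given, and whether the paralogues differ from each other was not tested. Mrps18c measured 11.04 and 11.12 in bone marrow-derived, 11.18 and 11.33 in white and 11.34 and 11.56 in brown adipocytes, and its differences of −0.17 and −0.37 did not pass (adjusted p = 0.513 and 0.186). Mrps30, a second protein with a small subunit name in the large subunit, measured 10.76 and 10.48 in bone marrow-derived, 10.94 and 11.06 in white and 11.48 and 11.22 in brown adipocytes, and passed no test. With subunits assigned by structure, 21 of 49 large and 14 of 26 small subunit genes were lower than in white, and 32 and 18 lower than in brown.

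The order of the 3 groups did not hold without overlap in every gene, and in 13 of the 76 genes the white mean was above the brown mean. The genes given here were picked from these after their values were seen. Mrpl52 measured 12.35 and 12.33 in bone marrow-derived, 12.10 and 12.12 in white and 11.90 and 11.998 in brown adipocytes. Its bone marrow-derived arrays were the highest, but its differences of 0.22 and 0.39 did not pass (adjusted p = 0.341 and 0.132). Mrps24 measured 10.82 and 11.05 in bone marrow-derived, 10.40 and 10.61 in white and 11.38 and 11.30 in brown adipocytes. It was thus lowest in white, 1.79-fold below brown (adjusted p = 0.0486), and its bone marrow-derived arrays lay above the white ones by a difference of 0.44 that did not pass (adjusted p = 0.136). Mrps6 was highest in white, with 12.76 and 12.80 against 11.77 and 12.17 in brown adipocytes, and this difference of 0.81 did not pass either (adjusted p = 0.0746). Mrps11 overlapped in every comparison, with 9.66 and 9.47 in bone marrow-derived, 9.62 and 9.90 in white and 9.55 and 9.97 in brown adipocytes. Mrpl33 was near background, with 3.98 and 2.26 in bone marrow-derived, 3.06 and 2.96 in white and 3.12 and 3.95 in brown adipocytes, so its RNA was not resolved. It was the single member with a mean under 5.

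As a description over 6 arrays that fall into 3 groups, the correlation of a gene with the mean of the other members had a median of 0.948 and exceeded 0.9 in 55 genes. It was under 0.5 in 4 genes, −0.95 for Mrpl52, 0.29 for Mrpl33, 0.32 for Mrps24 and 0.47 for Mrpl27. Outside the set the genes most like the member mean were Cox8a, a subunit of cytochrome c oxidase (r = 0.9994), Uqcr11, a subunit of the cytochrome bc1 complex (r = 0.9988), Mcee, methylmalonyl-CoA epimerase (r = 0.998), 2010001A14Rik and Lipt1, a lipoyltransferase of mitochondrial dehydrogenases. Any gene with the same order of groups reaches a high value here.

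The 2 bone marrow-derived samples differed little in these genes. The median absolute difference between GFP and LacZ was 0.16 over the members, against 0.15 between the white arrays and 0.18 between the brown arrays, and it was 0.28 over all genes. GFP was above LacZ in 46 of 76 members and in 7211 of all 17720 genes, with median differences of 0.06 and −0.09. Leaving aside Mrpl33, which was near background, Mrpl47 and Mrpl1 differed most in the large subunit. Mrpl47 had 10.84 with GFP and 10.01 with LacZ, and Mrpl1 had 8.89 and 9.52. In the small subunit Mrps27 differed most, as given above, and Mrps5 next, with 6.58 and 7.12.

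Several probe sets were available for 41 of the 76 genes. Of the 77 probe sets not chosen, 18 had a mean under 5, and of the other 59 the difference was below 0 in 48 against white and in 53 against brown, with medians of −0.53 and −0.96. They gave 18 lower calls and 1 higher call, a probe set of Mrps9 with a difference of 1.19, against white, and 33 lower and 0 higher calls against brown. Of the chosen probe sets 9 are of a type that can bind related transcripts, those of Mrpl9, Mrpl11, Mrpl15, Mrpl19, Mrpl37, Mrpl38, Mrps12, Mrps23 and Mrps24, and 24 members overlap another annotated gene.

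Other genes that build and run the mitoribosome were called lower in part, more of them against brown than against white. Measured proteins of the mitoribosome with other symbols numbered 4, and of these 2 were lower than in white and 3 lower than in brown. Of all genes 13.6% and 11.7% were lower in these comparisons. Dap3, a small subunit protein that binds GTP, measured 10.35 and 10.40 in bone marrow-derived, 11.38 and 11.63 in white and 11.63 and 11.77 in brown adipocytes, with differences of −1.13 and −1.33 (adjusted p = 0.0106 and 0.0089). Gadd45gip1, a large subunit protein, differed by −1.26 and −1.55 (adjusted p = 0.0135 and 0.00993). Ptcd3, at the messenger RNA entry, was lower than in brown by 1.54 on the log2 scale and also lower in white than in brown, with a difference of −1.05 (adjusted p = 0.027). Chchd1 passed no test.

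Of 15 mitochondrial translation factors, 4 were lower than in white, 9 lower than in brown, and 6 lower in white than in brown. These are 26.7%, 60% and 40% of the list, against 13.6%, 11.7% and 5.34% of all genes. Lrpprc, which stabilises mitochondrial messenger RNA, measured 8.15 and 8.23 in bone marrow-derived, 9.27 and 9.59 in white and 11.07 and 10.73 in brown adipocytes, with differences of −1.24 and −2.71 from white and brown (adjusted p = 0.0134 and 0.00322). Tufm, the elongation factor that brings aminoacyl-tRNA to the ribosome, measured 9.82 and 9.63 in bone marrow-derived, 10.29 and 10.62 in white and 11.75 and 11.54 in brown adipocytes. Its differences of −0.73 and −1.92 passed (adjusted p = 0.0497 and 0.00564). Gfm2, a ribosome recycling factor, and Mtif2, the initiation factor, were lower than in white with differences of −1.02 and −0.82 and lower than in brown with −1.88 and −1.71. Gfm1, the translocation factor, set brown apart, with 9.97 and 9.97 in bone marrow-derived, 9.92 and 10.05 in white and 11.78 and 11.47 in brown adipocytes.

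Of 26 assembly and ribosomal RNA modification genes, 7 were lower than in white, 13 lower than in brown and 2 lower in white than in brown. These are 26.9%, 50% and 7.69% of the list, against 13.6%, 11.7% and 5.34% of all genes. The last count is thus near the share of all genes. Mtg1, an assembly GTPase of the large subunit, measured 7.85 and 8.15 in bone marrow-derived, 9.40 and 9.76 in white and 10.30 and 10.21 in brown adipocytes, with differences of −1.58 and −2.25 (adjusted p = 0.00777 and 0.00421). Tfb1m, which methylates the ribosomal RNA of the small subunit, differed by −1.49 and −1.71 (adjusted p = 0.00668 and 0.00564), and Rpusd3, a pseudouridine synthase, by −1.72 and −1.62 (adjusted p = 0.0084 and 0.0119). Ddx28, an RNA helicase, was lower than in white by 1.59 on the log2 scale. Dhx30, another RNA helicase, was the 1 gene of the list called higher than in white, with 11.26 and 11.34 in bone marrow-derived against 10.22 and 10.41 in white adipocytes. Nsun4, an RNA methyltransferase, and Eral1, a chaperone of the small subunit RNA, were the pair lower in white than in brown.

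Enzymes that charge mitochondrial tRNA were called mostly against brown, 16 of 21, with 4 lower than in white and 4 lower in white than in brown. Of all genes 11.7%, 13.6% and 5.34% were lower in these comparisons. The 4 lower than in white, 19.0% of the list, lie near the 19.5% of genes with a mean of 8 to 12. Gatb, a subunit of the amidotransferase that makes glutaminyl-tRNA, measured 7.23 and 7.53 in bone marrow-derived, 9.29 and 9.87 in white and 10.30 and 10.0011 in brown adipocytes, with differences of −2.20 and −2.77 (adjusted p = 0.00669 and 0.00458). Fars2 and Wars2, which charge phenylalanine and tryptophan tRNA, were lower than in brown by 2.26 and 1.58 on the log2 scale. Among 19 genes of mitochondrial transcription and genome maintenance, 5 were lower than in white, 13 lower than in brown and 3 lower in white than in brown. These are 26.3%, 68.4% and 15.8% of the list, against 13.6%, 11.7% and 5.34% of all genes. Tefm, the elongation factor of the mitochondrial polymerase, differed by −1.31 and −1.90, and Tfb2m, its initiation factor, by −0.80 and −1.82. Tfam, which packages the mitochondrial genome, was lower than in brown with a difference of −1.04 (adjusted p = 0.0195), and its difference from white of −0.30 did not pass (adjusted p = 0.291).

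**Figure D4:**
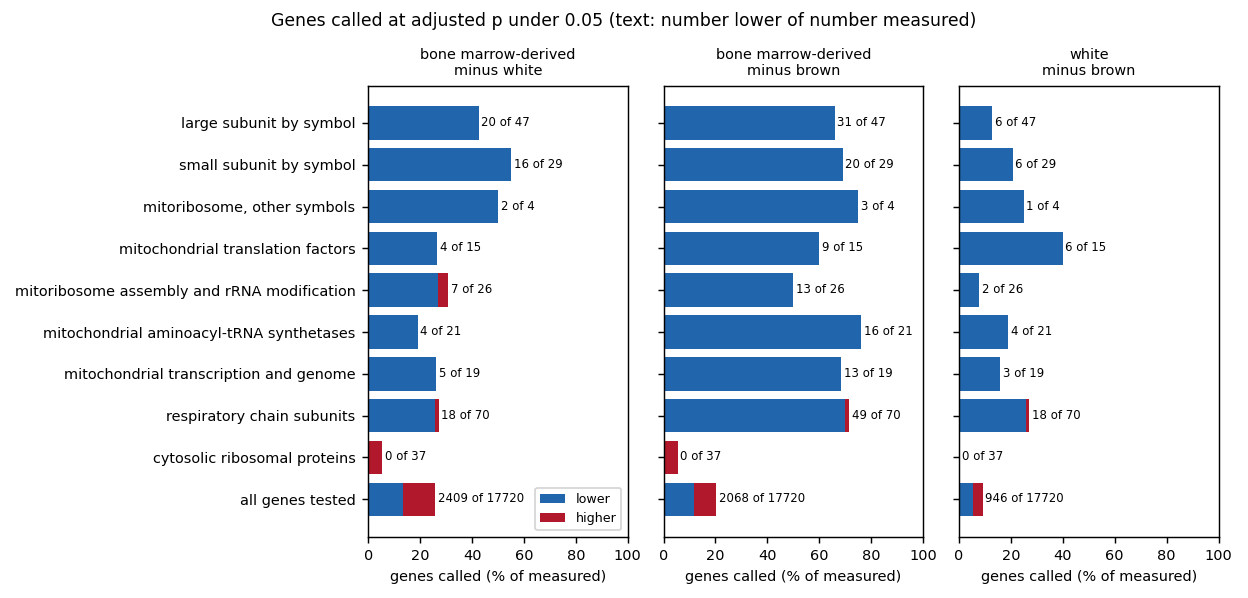
Share of each list's measured genes called lower (blue) and higher (red) at adjusted p under 0.05 in the 3 comparisons, in percent, with the number lower of the number measured beside each bar. Each of the mitochondrial lists has a larger blue share than all genes tested in the 3 comparisons, and cytosolic ribosomal proteins have 0 lower.

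Of 11 regulators of nuclear genes for mitochondrial proteins, 3 were lower and 2 higher than in white. Against brown 4 were lower and 2 higher. Of all genes 13.6% were lower and 12.2% higher than in white, and 11.7% and 8.71% against brown. With 11 genes, the 2 higher calls in each comparison are not far from these shares. Ppargc1a, the coactivator PGC-1alpha, measured 4.73 and 3.40 in bone marrow-derived, 7.18 and 7.57 in white and 9.0 and 9.40 in brown adipocytes, with differences of −3.31 and −5.14 (adjusted p = 0.00907 and 0.00415). Esrra and Esrrg, the receptors ERRalpha and ERRgamma, were lower than in white by 1.11 and 3.58 and lower than in brown by 2.20 and 6.69 on the log2 scale. The bone marrow-derived values of Ppargc1a, and those of Esrrg at 3.33 and 3.55, lie under 5 and so near background. The size of the differences of these 2 genes is therefore not resolved, and it may be understated. Ppargc1b measured 6.02 and 6.24 in bone marrow-derived against 9.93 and 9.68 in brown adipocytes, a difference of −3.67 (adjusted p = 0.00187). The 2 genes higher than in white were Gabpb1, the partner subunit of the ETS factor GABPA, with 10.60 and 11.15 in bone marrow-derived against 9.25 and 8.96 in white adipocytes, and Pprc1, a coactivator related to PGC-1alpha, with 9.73 and 9.43 against 8.54 and 8.69. Both were also higher than in brown (adjusted p = 0.0494 and 0.014). Gabpa, Nrf1 and Yy1, whose cores were searched in the promoters, passed neither comparison of bone marrow-derived adipocytes, with differences from white of 0.68, 0.84 and 0.19 (adjusted p = 0.073, 0.0701 and 0.47).

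Cytosolic ribosomal proteins did not share the decrease. Of 37 such genes 0 were called lower by limma in the 3 comparisons, where 13.6%, 11.7% and 5.34% of all genes were. At an unadjusted p under 0.05, 0 were lower than in white, 0 lower than in brown and 1 lower in white than in brown. The higher counts at that p were 4, 17 and 1. Over all 17720 genes the lower counts were 3661, 3271 and 2351, and the higher counts 3208, 3093 and 2274. Rpl12 and Rps27 were higher than in white and Rps14 and Rps27 higher than in brown. The median differences of the list were 0.12 and 0.38 against white and brown, and 0.22 between white and brown. Many of these genes lie near the upper end of the scale, with a median level of 12.8, where differences can be compressed. Whether they were was not tested. The respiratory chain, which includes the ATP synthase here, was measured by 70 subunits with a median level of 12.3. Of these, 18 were lower than in white, 49 lower than in brown and 18 lower in white than in brown. These are 25.7%, 70% and 25.7% of the list, against the shares of all genes given above. The medians of the list, −0.41, −1.01 and −0.54, stand beside −0.63, −1.01 and −0.37 for the mitochondrial ribosomal proteins. One gene was higher in each comparison, Cox7c against white and Atp5g1 in the comparisons with brown.

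**Figure D5:**
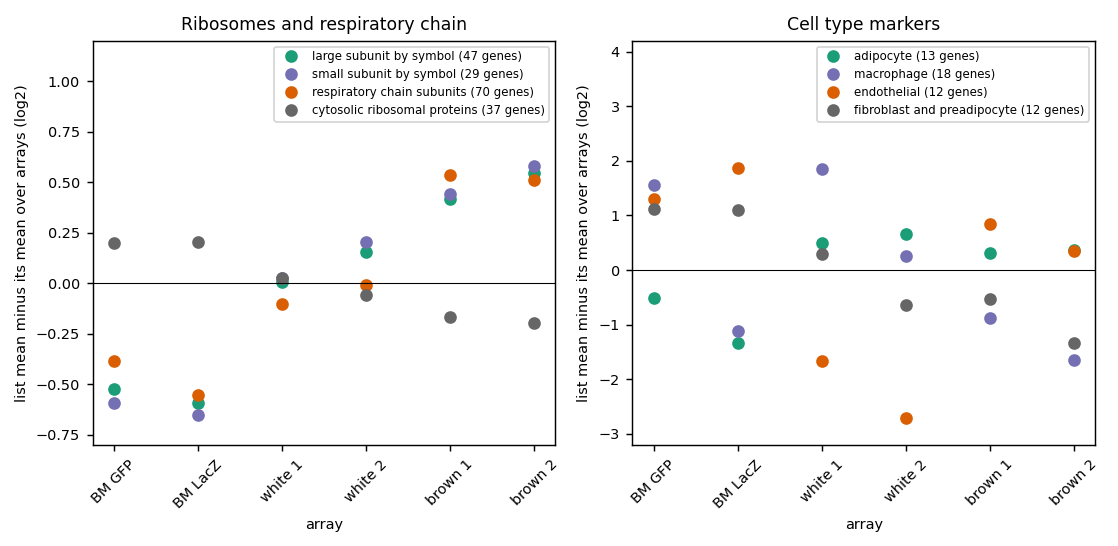
Mean log2 value of each list on each array minus the list's mean over the 6 arrays. On the left, both mitoribosomal subunits and the respiratory chain are lowest in the bone marrow-derived (BM) arrays and highest in the brown arrays, and cytosolic ribosomal proteins are highest in the bone marrow-derived arrays. On the right, macrophage markers differ within the bone marrow-derived and white pairs, and endothelial markers are lowest in white.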

How the data were processed

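RNA of 6 samples was measured on mouse oligonucleotide arrays, 2 per group, as grouped by the sample titles. The authors deposited 1 column of log2 values for each array, with 1 value per probe set. The submitters' processing notes name RMA (Robust Multi-array Average) and Partek without saying which step each did. The file states no log base, and log2 was inferred from a range of 1.67 to 14.0. RMA is meant to equalize the distributions of the arrays, but the medians of the deposited arrays still ranged from 5.46 to 5.72. A difference is relative to the other genes, and values near either end of the scale can understate it. No detection calls were given, and a mean under 5 was taken as near background. Precision is limited by the number of arrays.

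The platform annotation gave a single gene symbol to 33565 of 43057 probe sets, several symbols to 857 and none used here to 8635. Of the named ones, 33376 matched RefSeq (GRCm38.p6) by gene ID, and 0 symbols changed. One probe set per gene gave 17720 genes.

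Group means were fitted over all 6 arrays with limma 3.58.1 in R 4.3.3 (3 residual and 2.35 prior degrees of freedom). The 3 contrasts were tested two-sided, and p-values were adjusted over all genes by Benjamini-Hochberg, with a threshold of 0.05. The procedure was tested on simulated data. Members may all be named. Given in full were, per comparison and subunit, up to 4 called genes with the largest difference and no overlap, the stalk proteins, the S18 paralogues, the 2 genes per subunit that differed most between GFP and LacZ, and up to 3 called genes per other list, some of which were left out. Mrps11, Mrps30 and the genes said not to follow the order were picked once their values were known. The other lists were mitoribosomal proteins with other symbols, translation factors, assembly and RNA modification, tRNA synthetases, transcription and genome, regulators, respiratory chain, cytosolic ribosomal proteins and 8 cell type marker lists. Members and lists were chosen with earlier results of these data known. The band of levels from 8 to 12 was set after the data had been seen. Origin and structural subunit of each protein were assigned from general knowledge. Alternatives were the mean over probe sets, no dim genes, centring on the array median, no moderation, a trended robust prior, the replicate number as a block and leaving out each array.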

Additional observations from a re-analysis of the deposited data

How the results depend on the processing

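With 2 arrays per group, single calls depend on the error model and directions less so. No called difference of a member changed sign under the alternatives run. Without moderation of the errors the genes lower than in white numbered 2 in the large and 0 in the small subunit, those lower than in brown 14 and 5, with 1 member higher, and those lower in white than in brown 0 and 0. Only 1.699%, 3.75% and 0% of all genes were then called lower in these 3 comparisons. A trended, robust prior gave 1 member higher than in brown and 1 higher in white than in brown. With the replicate number as a block, the counts for white against brown were 1 and 3, when 3.61% of all genes were lower, and other counts stayed within 1.5 times. Whether the replicate numbers pair the samples was not resolved. Correlations of the within-pair differences over all genes were 0.205 between bone marrow-derived and white, and −0.0038 between bone marrow-derived and brown. That between white and brown was 0.277, and a correlation over genes cannot show whether samples were paired. Centring on the array median gave a large subunit median against brown of −1.03. The change of large minus small subunit against white was 0.083 without dim genes and 0.057 with probe sets averaged, and against brown 0.043 with probe sets averaged. By structure it was −0.029 between white and brown.

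Leaving out 1 array gave, for bone marrow-derived against white, 2 to 13 large and 4 to 9 small subunit genes lower, medians of −0.62 to −0.55 and −0.79 to −0.60, and a change of large minus small of 0.082 to 0.117. Against brown it gave 2 to 28 and 1 to 18 genes lower, with medians of −1.05 to −0.87 and −1.23 to −1.03. For white against brown it gave 0 to 6 genes in each subunit, with a change of large minus small of −0.020 to 0.014. In these fits a group with 1 array is assumed to vary like the others. Signal near background limits Mrpl33 alone among the members.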
